A study of Arabidopsis thaliana with 30 samples.

Results

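Cytochrome P450 genes were examined in peak lists from ChIP-seq of Arabidopsis thaliana seedlings aged 14 days. Members were the nuclear protein-coding genes whose symbol or synonym in the TAIR10 annotation is a P450 name (CYP, a family number, a letter and a gene number), and 234 of 27444 nuclear protein-coding genes met this rule. They belonged to 46 families by number, and 13 families of 6 or more members held 166 of them. The profiled proteins carried green fluorescent protein (GFP) and were precipitated with a GFP antibody. They were BRM, the ATPase of a SWI/SNF chromatin remodelling complex, and the bromodomain proteins BRD1, BRD2 and BRD13, which belong to the same complex. The 10 groups were BRM-GFP in the brd1/2/13 triple mutant and BRM-GFP, BRD1-GFP, BRD2-dBromo-GFP and BRD2-GFP, BRD13-GFP, H4K5ac in brd1/2/13 and in WT, and H4K8ac in brd1/2/13 and in WT. The name BRD2-dBromo-GFP points to a BRD2 whose bromodomain is altered. H4K5ac and H4K8ac are acetyl marks on lysines of histone H4, which bromodomains can bind. No genotype stands in the BRM-GFP labels, and the series design names brm-1 for BRM, brd1 for BRD1 and brd2 for BRD2 occupancy. The promoters of the GFP fusions are not given in the sources used here. All seedlings grew on half-strength MS medium under long days. Each group had 2 replicates, and no label says whether they were separate cultures, so a p-value here covers the spread of these samples alone, which may be technical.

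P450 enzymes are haem proteins, most of them in the endoplasmic reticulum. Most use oxygen and electrons from a reductase to hydroxylate or otherwise oxidise small molecules. In plants P450 enzymes take part in building and breaking down most hormones. They also act in making sterols, carotenoids, cutin, lignin precursors and defence compounds such as glucosinolates and camalexin. Names follow sequence: members of a family share a number, members of a subfamily share the letter, and many genes of one subfamily lie side by side as tandem copies. SWI/SNF complexes move or evict nucleosomes with energy from ATP, and acetylated histones are found mostly at active genes.

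The 20 lists held 6131 to 20742 peaks. Background coverage, the depth measure that the lists allow, was 36.4 to 37.0 reads for BRM-GFP in brd1/2/13 and 10.01 to 18.6 reads for BRM-GFP, and it was 24.1 to 38.1 reads in the remaining lists. The largest q of a peak was 0.01 for BRM-GFP in brd1/2/13 and 0.05 elsewhere. Whole seedlings hold many cell types, so occupancy in fewer cells and weaker occupancy per cell cannot be told apart. A region is a stretch of merged peaks that holds a peak of each replicate of its group, and a gene was counted as having a region where one overlapped the gene or the 1 kb before its start. In WT seedlings 3 of 5 genes of green tissue, 2 of 6 seed storage genes and 1 of 3 pollen genes that served as markers had an H4K5ac region. The marker lists named 6, 6 and 5 genes, and only those found were counted. Of all genes 70.7% had an H4K5ac region in WT, so these few markers do not tell the tissues apart.

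P450 genes had regions less often than all genes in 9 of the 10 groups, and the exception was BRM-GFP in brd1/2/13. BRM-GFP regions lay at 49 P450 genes (20.9%) in brd1/2/13, against 20.8% of all genes, and at 115 P450 genes (49.1%) in the BRM-GFP group, against 55.8% of all genes. BRD1-GFP had regions at 142 members (60.7%, against 66.3% of all genes) and BRD13-GFP at 125 (53.4%, against 56% of all genes). BRD2-dBromo-GFP had regions at 119 members (50.9%, against 62.6% of all genes) and BRD2-GFP at 128 (54.7%, against 63.4% of all genes). The distance from all genes was widest for the histone marks. H4K5ac regions lay at 136 members in brd1/2/13 (58.1%, against 72.1% of all genes) and at 127 in WT (54.3%, against 70.7% of all genes). H4K8ac regions lay at 108 members in brd1/2/13 (46.2%, against 65.8% of all genes) and at 99 in WT (42.3%, against 65.8% of all genes). Of the 127 members with H4K5ac in WT, 32 (25.2%) had no H4K8ac region in WT, against 9.4% of such genes overall. P450 genes had a median length of 2081 bp and all genes one of 2078 bp. Genes are not replicates, and these shares are descriptions of the lists.

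**Figure D1:**
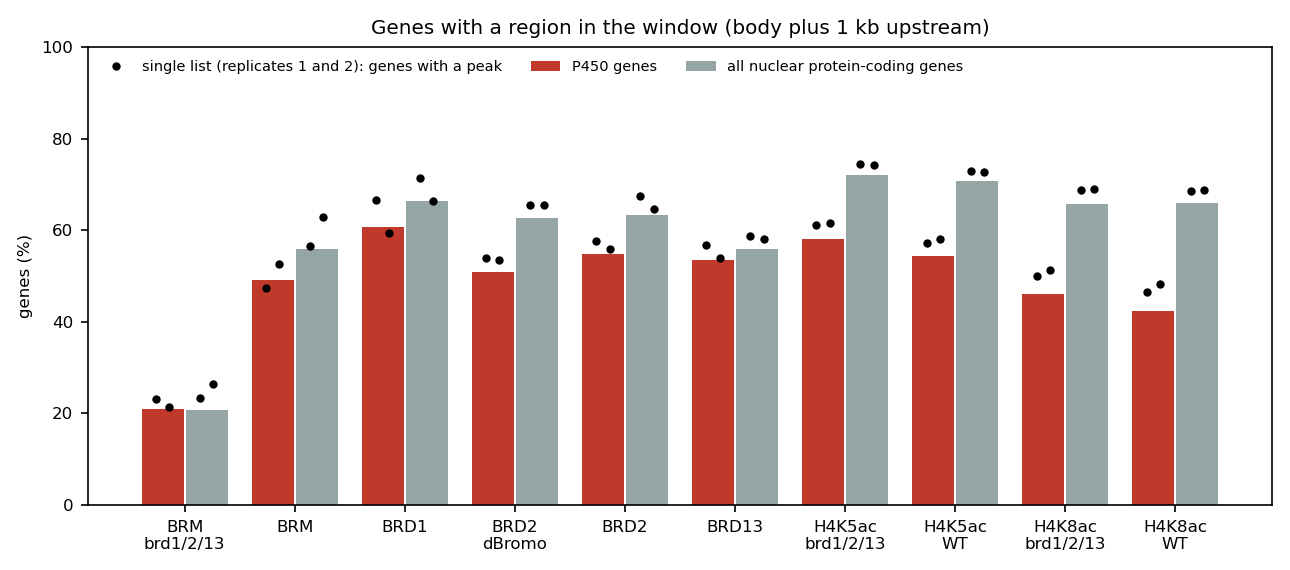
Share of P450 genes (234) and of all nuclear protein-coding genes (27444) with a region, in percent, for each of the 10 groups (bars), with the shares that have a peak in each single list as points. The bars of a pair are close for BRM-GFP in brd1/2/13 (20.9% and 20.8%) and farthest apart for H4K8ac in WT (42.3% and 65.8%).

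Members ranged from fully occupied to empty. Regions of all 10 groups were present at 36 members (15.4%, against 18.1% of all genes), among them CYP90A1 (CPD) of brassinosteroid synthesis, CYP73A5, the cinnamate 4-hydroxylase of phenylpropanoid metabolism, CYP94C1 of jasmonate breakdown, CYP83B1 of indole glucosinolate synthesis, CYP75B1, the flavonoid 3′-hydroxylase, and CYP86A8 of cutin synthesis. No group had a region at 57 members (24.4%, against 17.1% of all genes). Among these were CYP85A1, a brassinosteroid 6-oxidase, CYP79F2 and CYP83A1 of aliphatic glucosinolate synthesis, CYP71A13 of camalexin synthesis, CYP86A1 of root suberin and CYP96A15 of stem wax, and CYP708A2 and CYP705A5 of the root thalianol pathway.

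Most members with BRM had the BRD proteins as well. Of the 115 members with a BRM-GFP region, 102 (88.7%) had regions of all 3 BRD proteins, against 88.6% of all such genes, and none lacked all 3, against 1.1% of all such genes. Among the 119 members without a BRM-GFP region, 11 (9.24%, against 9.13% of all such genes) had all 3 BRD proteins and 35 (29.4%, against 32.4% of all such genes) had at least 1. The fold is the enrichment over local background that MACS2 gave at the summit of the best peak of a gene. The 11 included CYP707A4, an abscisic acid 8′-hydroxylase, with folds of 2.07 and 2.31 in the BRD1-GFP lists, and CYP98A8 of pollen phenolamide synthesis. The shares at P450 genes were thus close to those at all genes for each pairing of BRM with the BRD proteins.

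The comparison of BRM-GFP in brd1/2/13 with BRM-GFP asks how far BRM occupancy depends on the BRD proteins. A BRM-GFP region was called retained where it met a peak in each of the 2 lists from brd1/2/13, partly retained where it met a peak in 1 of them and lost where it met none, and a gene took the status of its best kept region. Of the 115 bound members, 53 were retained (46.1%, against 43.9% of all bound genes), 15 partly retained (13.0%, against 15.1% of all bound genes) and 47 lost (40.9%, against 41% of all bound genes). No member had a region in brd1/2/13 in the absence of an overlapping BRM-GFP peak, against 0.0292% of all genes. Peaks lay at 54 and 50 members for BRM-GFP in brd1/2/13 and at 111 and 123 members in the BRM-GFP lists, a difference of -65 members between the means (exact permutation test, two-sided, p = 0.333, the smallest that 2 lists against 2 allow). The groups did not overlap. At all genes, peaks lay at 6392 and 7228 genes for BRM-GFP in brd1/2/13 and at 15533 and 17244 in the BRM-GFP lists. The median fold of the members' best peaks was 2.09 and 2.29 for BRM-GFP in brd1/2/13 and 3.82 and 3.93 in the BRM-GFP lists (exact permutation p = 0.333), and that of all genes was 2.21 and 2.29 in brd1/2/13 and 4.0 and 3.78 in BRM-GFP. Folds are relative to the background of their own list, which differed between these lists, and the part of this in the difference was not tested. With the 6129 best peaks of each of these 4 lists, peaks lay at 54 and 46 members in brd1/2/13 and at 54 and 65 in BRM-GFP. The difference was -9.5 with overlapping groups (exact permutation p = 0.667). In that setting 178 members were unbound, against 119 with all peaks, so fewer members could take a status. Of those still bound, 5 were lost, 6 partly retained and 45 retained. Of all genes bound in that setting, 13.3% were lost and 73.9% retained. Only 4 of the 47 members lost with all peaks were still called lost. With an overlap of at least 50% of the region asked for, 19 members were retained and 76 lost, and 15.5% of all bound genes were retained and 67.8% lost. Equal numbers of peaks take away, by construction, the difference in peak number between the groups. That setting therefore cannot show how far BRM occupancy at members differed.

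The retained members with the strongest BRM-GFP peaks included hormone, cutin and lignin enzymes. CYP707A3, an abscisic acid 8′-hydroxylase, had folds of 4.49 and 4.30 in BRM-GFP in brd1/2/13 and of 15.4 and 15.6 in BRM-GFP. At CYP94C1, which oxidises jasmonoyl-isoleucine, folds were 3.0 and 3.74 in brd1/2/13 and 14.3 and 13.2 in BRM-GFP. CYP90A1 had 3.35 and 3.61 in brd1/2/13, against 12 and 11.5 in BRM-GFP. For all 3 genes both lists in brd1/2/13 were below both BRM-GFP lists, and no test was run on single genes. The genes named here were picked by their BRM-GFP ranks, so lower folds in brd1/2/13 are partly fixed by that choice. CYP86A8, a fatty acid omega-hydroxylase also named LCR, had 3.33 and 3.72 in brd1/2/13 and 11.3 and 13.0 in BRM-GFP. CYP73A5 had 2.53 and 3.14 in brd1/2/13 and 11.4 and 10.3 in BRM-GFP. CYP84A4, a relative of the ferulate 5-hydroxylase CYP84A1, had 2.58 and 2.99 in brd1/2/13 and 8.54 and 8.37 in BRM-GFP. CYP81G1, CYP76C3, CYP81D4 and CYP71B23 completed the 10 highest by rank. The best peaks of CYP81G1 and CYP71B23 had their summits downstream of the gene, and that of CYP76C3 lay 1953 bp upstream of its start.

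Partly retained members had intermediate BRM-GFP folds. CYP98A3, the 3′-hydroxylase of p-coumaroyl esters in lignin synthesis, had a peak of 1.76 in 1 of the 2 brd1/2/13 lists and folds of 5.63 and 6.13 in BRM-GFP. CYP97C1, a carotenoid hydroxylase also named LUT1, had 1.92 in 1 list in brd1/2/13 and 4.82 and 5.56 in BRM-GFP. CYP51G1, the sterol 14-demethylase, had 1.97 in 1 list in brd1/2/13 and 4.27 and 4.44 in BRM-GFP. The tryptophan N-hydroxylase CYP79B3, which feeds indole glucosinolates, camalexin and auxin, had 1.95 in 1 list in brd1/2/13 and 3.82 and 3.93 in BRM-GFP. CYP707A2, CYP709B3, CYP89A2, CYP81K1, CYP706A7 and CYP79B2 were the others of the 10 highest by rank. At CYP707A2 and CYP709B3 the peak in brd1/2/13 met the BRM-GFP region outside the window of the gene, so these genes had no peak in brd1/2/13 of their own.

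Lost members had the lowest median BRM-GFP folds, as did lost genes among all genes. CYP734A1, which inactivates brassinosteroids, had no peak in brd1/2/13 and folds of 4.45 and 4.54 in BRM-GFP. CYP711A1 (MAX1) of strigolactone synthesis had none in brd1/2/13 and 4.0 and 5.16 in BRM-GFP. CYP74B2, a hydroperoxide lyase gene of leaf volatile synthesis, had none in brd1/2/13 and 4.36 and 4.59 in BRM-GFP. The others of the 10 highest by rank were CYP86C2, CYP77A4, CYP87A2, CYP71B26, CYP72A10 with CYP72A11, which share a region, and CYP71B12. Median BRM-GFP folds were 5.45 and 5.97 at retained members, 3.95 and 3.78 at partly retained members and 2.91 and 2.91 at lost members. At all genes of the same status they were 5.91 and 6.07, 3.91 and 3.88, and 3.09 and 2.96, so the order was not particular to P450 genes. The widest BRM-GFP regions of the members had median widths of 2511, 1519 and 743 bp in the same order of status. At all genes of the same status the median widths were 2231, 1110.5 and 742 bp. The order of the widths is partly fixed by the definition, since a wider region meets a peak in brd1/2/13 more easily. Of the 53 retained members, 48 (90.6%) had a region of BRM-GFP in brd1/2/13 in their own window, against 84.4% of all retained genes.

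**Figure D2:**
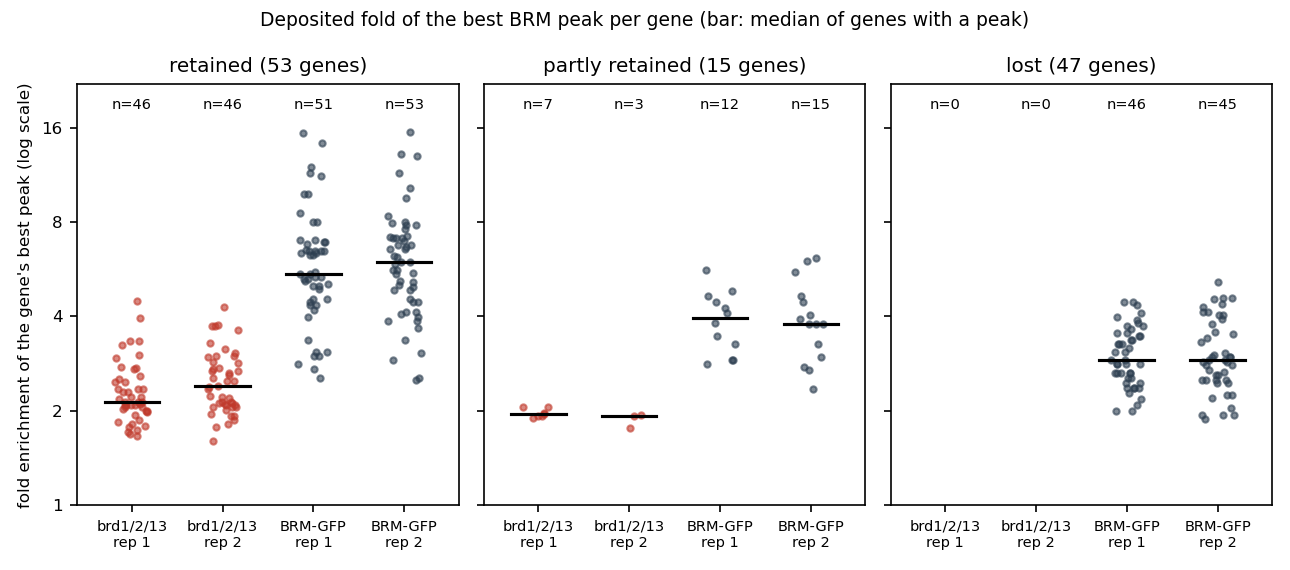
Fold enrichment of the best peak of each P450 gene in the BRM-GFP lists, on a log axis by BRM status, with the values of the lists in brd1/2/13 to their left (points are genes, bars medians). Medians in the first and second BRM-GFP list are 5.45 and 5.97 at retained members and 2.91 and 2.91 at lost members. At all genes, not drawn here, they are 5.91 and 6.07 for retained and 3.09 and 2.96 for lost ones.

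The DNA under BRM-GFP summits is printed for members of each status whose 201-base window holds no UTR, so that the enriched stretch can be read. Windows are given on the gene strand, 5′ to 3′, from the TAIR10.1 assembly of RefSeq. The 7 shown were chosen with their values known to cover the statuses and the members with H4K5ac in brd1/2/13 only. Capitals mark a G-box (CACGTG, bound by bHLH and bZIP factors) or a GAGA repeat (GAGAGA), and windows with no capitals hold neither of these nor a TATA element (TATAAA) on either strand. CYP94C1 (retained, chr2:11809450-11809650, plus strand), CYP81D4 (retained, chr4:17564096-17564296, minus strand), CYP98A3 (partly retained, chr2:17060297-17060497, minus strand), CYP79B3 (partly retained, chr2:9490425-9490625, plus strand), CYP74B2 (lost, chr4:8837908-8838108, plus strand), CYP706A7 (partly retained, chr4:7318846-7319046, minus strand) and CYP77B1 (lost, chr1:3903278-3903478, plus strand) all have their summit in a coding exon.
CYP94C1: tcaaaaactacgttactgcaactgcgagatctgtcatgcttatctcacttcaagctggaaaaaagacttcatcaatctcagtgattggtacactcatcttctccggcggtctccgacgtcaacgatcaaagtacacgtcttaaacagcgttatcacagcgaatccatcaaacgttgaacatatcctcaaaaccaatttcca
CYP81D4: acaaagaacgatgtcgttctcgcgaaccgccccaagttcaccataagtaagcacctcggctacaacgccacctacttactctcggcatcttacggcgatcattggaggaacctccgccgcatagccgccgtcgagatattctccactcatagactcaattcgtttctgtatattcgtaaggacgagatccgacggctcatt
CYP98A3: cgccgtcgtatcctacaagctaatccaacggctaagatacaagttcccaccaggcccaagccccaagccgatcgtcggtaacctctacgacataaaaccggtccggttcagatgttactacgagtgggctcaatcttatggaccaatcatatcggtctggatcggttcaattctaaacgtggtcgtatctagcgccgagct
CYP79B3: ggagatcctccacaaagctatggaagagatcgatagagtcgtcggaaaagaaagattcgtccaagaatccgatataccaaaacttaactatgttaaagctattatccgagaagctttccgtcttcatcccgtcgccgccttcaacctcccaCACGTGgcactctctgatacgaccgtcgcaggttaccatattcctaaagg
CYP74B2: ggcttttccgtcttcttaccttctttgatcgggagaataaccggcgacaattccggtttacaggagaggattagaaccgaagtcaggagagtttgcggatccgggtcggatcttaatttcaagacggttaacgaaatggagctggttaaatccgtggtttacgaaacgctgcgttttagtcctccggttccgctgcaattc
CYP706A7: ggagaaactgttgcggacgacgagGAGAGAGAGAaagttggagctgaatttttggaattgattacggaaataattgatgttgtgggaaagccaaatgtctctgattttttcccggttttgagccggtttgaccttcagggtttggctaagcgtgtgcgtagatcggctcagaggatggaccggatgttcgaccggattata
CYP77B1: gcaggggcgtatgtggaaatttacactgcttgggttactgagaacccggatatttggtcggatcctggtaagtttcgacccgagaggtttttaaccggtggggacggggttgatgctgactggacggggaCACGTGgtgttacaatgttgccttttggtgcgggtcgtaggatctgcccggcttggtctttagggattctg

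The windows of CYP94C1, CYP98A3 and CYP81D4 were centred 271, 255 and 567 bp past the gene start, while those of CYP74B2 and CYP79B3 were centred 2640 and 2112 bp past it. Over all regions at members, a G-box lay within the 201-base summit window of 15 of 131 regions (11.5%), against 9.05% of all 13638 BRM-GFP regions. A GAGA repeat lay in 39 (29.8%), against 39.2% of all regions, and a TATA element in 19 (14.5%), against 18%. A match is a description of these letters and not evidence of a bound factor.

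BRM-GFP summits lay farther from the gene start at P450 genes. The best BRM-GFP summit was within 500 bp of the start at 47 of 115 bound members (40.9%), against 58.9% of all bound genes, and inside the gene window at 85 (73.9%, against 76.5% of all bound genes). The median distance was 327 bp past the start, with quartiles of -19 and 1889 bp, against 160 bp with quartiles of -276 and 394 bp at all bound genes. Summits fell in a coding exon at 50 members, upstream at 30, downstream at 18, in the 5′ UTR at 10, in the 3′ UTR at 5 and in an intron at 2. H4K5ac summits in WT had a median of 386 bp past the start, with an upper quartile of 1486 bp, against 283 and 432 bp at all genes. In all 10 groups the upper quartile of the members exceeded that of all genes.

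**Figure D3:**
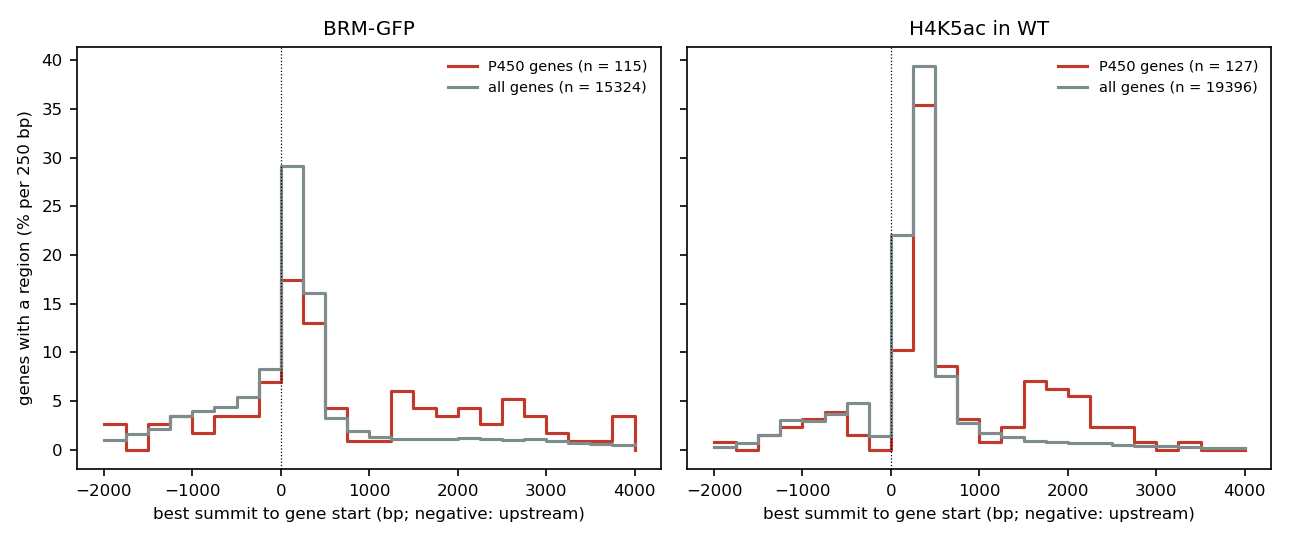
Share of genes with a region, in percent per 250 bp, by the distance in bp from the gene start to the summit of the best peak, for P450 genes and all genes, with BRM-GFP on the left and H4K5ac in WT on the right. The members' lines reach farther past the start, with an upper quartile of 1889 bp against 394 bp for BRM-GFP and of 1486 bp against 432 bp for H4K5ac.

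BRM-bound P450 genes had acetylation less often than other bound genes. H4K5ac had a WT region at 87 of the 115 bound members (75.7%, against 88.8% of all bound genes) and at 40 of the 119 unbound members (33.6%, against 47.8% of all unbound genes). By status the shares were 46 of 53 retained (86.8%, against 91.1% of all retained genes), 9 of 15 partly retained (60%, against 88.6% of all partly retained genes) and 32 of 47 lost members (68.1%, against 86.4% of all lost genes). H4K8ac had a WT region at 77 bound members (67.0%, against 85.7% of all bound genes) and at 22 unbound members (18.5%, against 40.7% of all unbound genes). Its shares by status were 41 of 53 retained (77.4%, against 89.9% of all retained genes), 9 of 15 partly retained (60%, against 85.4% of all partly retained genes) and 27 of 47 lost members (57.4%, against 81.3% of all lost genes). Neither mark had a WT region at 26 bound members (22.6%), against 9.32% of bound genes. Hormone enzymes among them were CYP734A1 and CYP85A2, CYP90D1 of the brassinosteroid C-23 hydroxylation, CYP707A2 of abscisic acid breakdown and CYP714A1 of gibberellin inactivation. CYP707A3, with the highest BRM-GFP rank of all members, had no H4K5ac region in either genotype, and its H4K8ac folds were 2.28 and 2.19 in brd1/2/13 and 2.14 and 2.33 in WT. Of the 26 members, 15 were lost, 6 partly retained and 5 retained.

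The H4K5ac comparison between brd1/2/13 and WT asked whether acetylation at P450 genes differs in the mutant. Peaks lay at 143 and 144 members in the lists of brd1/2/13 and at 134 and 136 in those of WT, a difference of 8.5 between the means (exact permutation p = 0.333). The 4 lists did not overlap between genotypes. With equal numbers of peaks per list, peaks lay at 141 and 137 members in brd1/2/13 and at 134 and 136 in WT, a difference of 4. The median fold of the members' best peaks was 3.58 and 3.18 in brd1/2/13 and 3.20 and 3.03 in WT (exact permutation p = 0.667), while at all genes it was 4.81 and 4.79 in brd1/2/13 and 4.62 and 4.61 in WT. At all genes peaks lay at 20410 and 20372 genes in brd1/2/13 and at 20012 and 19966 in WT. Of the 107 members without H4K5ac in WT, 15 (14.0%, against 10.2% of all such genes) had a region in brd1/2/13, and of the 127 members with it in WT, 6 (4.72%, against 2.2% of all such genes) had none in brd1/2/13.

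H4K5ac regions of brd1/2/13 only, overlapped by no WT peak, were the sole kind at 5 members (2.14%, against 1% of all genes). CYP90D1, which hydroxylates brassinosteroids at C-23, had folds of 1.96 and 2.11 in brd1/2/13 and no peak in WT. CYP77B1, of a family of fatty acid oxidases, had 2.26 and 2.26 in brd1/2/13 and no peak in WT. CYP71A16, the marneral oxidase of root triterpene metabolism, had 2.26 and 1.66 in brd1/2/13 and no peak in WT. All of these folds lay below the median of the members, and the regions were thus weak ones. The neighbours CYP706A6 and CYP706A7 had 2.02 and 2.40, and 1.82 and 2.15, in brd1/2/13 and no peak in WT. CYP706A6, CYP77B1 and CYP90D1 were among the lost members, CYP706A7 was partly retained and CYP71A16 had no BRM-GFP region. Leaving out any 1 of the 4 lists gave 9 to 10 members with mutant-only regions and 2 to 4 with WT-only regions. WT-only regions were the sole kind at 1 member, CYP71A20 (0.427%, against 0.372% of all genes), which had folds of 1.82 and 2.13 at another place in brd1/2/13 and of 1.83 and 1.99 in WT.

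H4K8ac was compared in the same way. Peaks lay at 117 and 120 members in brd1/2/13 and at 109 and 113 members in WT, a difference of 7.5 (exact permutation p = 0.333), whereas at all genes they lay at 18852 and 18928 genes in brd1/2/13 and at 18822 and 18904 in WT. With equal numbers of peaks per list, they lay at 112 and 120 members in brd1/2/13 and at 109 and 113 in WT, a difference of 5 with overlapping groups (exact permutation p = 0.667). The difference was 4.5 within 500 bp of the start and 3.5 for peaks with a −log10 q of at least 5. The median fold at members was 2.59 and 2.67 in brd1/2/13 and 2.63 and 2.56 in WT (exact permutation p = 0.667), while at all genes it was 3.21 and 3.22 in brd1/2/13 and 3.19 and 3.16 in WT. Of the 135 members without H4K8ac in WT, 15 (11.1%, against 8.32% of all such genes) had a region in brd1/2/13, and of the 99 with it in WT, 6 (6.06%, against 4.38% of all such genes) had none in brd1/2/13. Mutant-only regions were the sole kind at 4 members (1.71%, against 0.798% of all genes), CYP81D4, CYP79A2 and the pair CYP705A30 and CYP705A32, which share one region. At CYP81D4 the folds were 2.38 and 3.01 in brd1/2/13, with no peak in WT. CYP79A2, which converts phenylalanine for benzyl glucosinolate synthesis, had 2.07 and 1.98 in brd1/2/13 and no peak in WT. CYP96A9 was the 1 member with WT-only regions (0.427%, against 0.703% of all genes), with no peak in brd1/2/13 and folds of 1.81 and 1.73 in WT. Leaving out any 1 of the 4 lists gave 8 to 12 members with mutant-only and 3 to 8 with WT-only regions.

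The BRD2-dBromo-GFP comparison asks whether the bromodomain of BRD2 matters for its occupancy. Peaks lay at 126 and 125 members in the BRD2-dBromo-GFP lists and at 135 and 131 in the BRD2-GFP lists, a difference of -7.5 (exact permutation p = 0.333), and at 17987 and 18001 of all genes in BRD2-dBromo-GFP against 18494 and 17762 in BRD2-GFP. The median fold at members was 3.09 and 2.87 in BRD2-dBromo-GFP and 3.46 and 3.30 in BRD2-GFP (exact permutation p = 0.333). At all genes it was 3.07 and 2.93 in BRD2-dBromo-GFP and 3.33 and 3.37 in BRD2-GFP, so the lower fold was not particular to P450 genes. Regions of BRD2-dBromo-GFP alone were the sole kind at CYP96A9 and CYP98A9 (2 members, 0.855%, against 1.41% of all genes). Regions of BRD2-GFP alone were the sole kind at CYP705A33, CYP71A22, CYP71B19 and CYP98A8 (4 members, 1.71%, against 1.51% of all genes). CYP98A8 and CYP98A9, both of pollen phenolamide synthesis, fell on opposite sides, with BRD2-dBromo-GFP folds of 2.63 and 1.98 at CYP98A9 and BRD2-GFP folds of 2.02 and 2.1 at CYP98A8.

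Among the 13 families of 6 or more members, the share with a BRM-GFP region ran from 0% to 85.7%, beside 49.1% of all members and 55.8% of all genes, and that with H4K5ac in WT from 0% to 88.9%, beside 54.3% of all members and 70.7% of all genes. BRM-GFP in brd1/2/13 had regions at 20.9% of all members and 20.8% of all genes, and H4K5ac in brd1/2/13 at 58.1% and 72.1%. The CYP71 family, the largest with 49 members, had BRM-GFP regions at 8 members in brd1/2/13 and at 22 in BRM-GFP. The CYP705 family, the next with 24 members, had BRM-GFP regions at 0 members in brd1/2/13 and at 2 in BRM-GFP, while H4K5ac lay at 13 in brd1/2/13 and 14 in WT. BRM was therefore scarce in the CYP705 family where H4K5ac was not, and 12 of the 40 members with H4K5ac in WT but no BRM-GFP were of this family. The CYP72 family (9 members) had BRM-GFP at 4 in brd1/2/13 and at 7 in BRM-GFP, with H4K5ac at 8 in each genotype. The CYP706 family (7 members) had BRM-GFP at 3 in brd1/2/13 and at 6 in BRM-GFP, with H4K5ac at 6 in brd1/2/13 and 4 in WT. The CYP81 family (16 members), with defence-linked indole glucosinolate enzymes, had BRM-GFP at 7 in brd1/2/13 and 11 in BRM-GFP. CYP81F1 is listed as CYP91A2 in the annotation and is not counted in that family. The CYP702 family (6 members) had only 1 member with a BRD1-GFP region and no region of any other group. The CYP96 and CYP79 families had no region of BRM-GFP in brd1/2/13, with BRM-GFP at 3 of 12 and at 2 of 7 members. In families of this size, 0 is not far below the 20.8% of all genes. Among the clans, larger groups of related families, clan 72 had BRM-GFP at 13 of 19 members (68.4%) and clan 71 at 68 of 148 (45.9%).

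**Figure D4:**
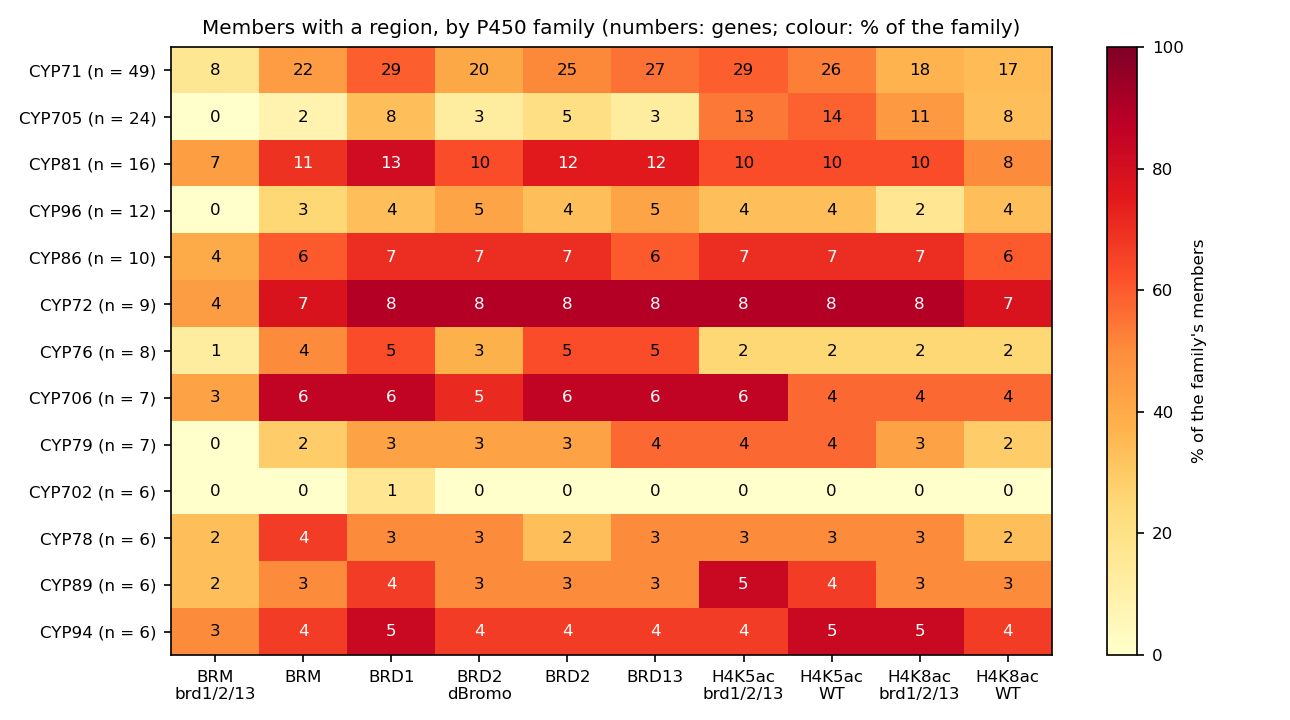
Number of members with a region (digits) and their share of the family (colour, percent) in each group, for the 13 families of 6 or more members. The CYP705 family stands out with 0 and 2 of 24 members for BRM-GFP in brd1/2/13 and BRM-GFP but 13 and 14 for H4K5ac in brd1/2/13 and WT. Of all genes, 20.8%, 55.8%, 72.1% and 70.7% had a region of these groups, in the same order.

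The hormone lists had BRM-GFP at anything between none and all of their genes, and with 1 to 6 genes each they are too short to set against the 49.1% of members or the 55.8% of all genes with a region. All but CYP85A1 of the 6 brassinosteroid synthesis genes had a BRM-GFP region, with 3 retained (CYP90A1, CYP90B1 and CYP90C1) and 2 lost (CYP90D1 and CYP85A2). H4K5ac lay at 4 of the 6 in brd1/2/13 and at 2 in WT. At CYP90B1, the C-22 hydroxylase, BRM-GFP folds were 2.08 and 2.01 in brd1/2/13 and 5.36 and 4.85 in BRM-GFP, and H4K5ac folds were 3.10 and 3.03 in brd1/2/13 and 2.34 and 2.55 in WT. CYP90C1 (ROT3) had H4K5ac peaks of 2.30 and 2.81 in the WT lists that did not overlap, so it had no WT region. The abscisic acid breakdown list had all 3 BRD proteins at all 4 genes, BRM-GFP at 3 and H4K5ac at 1 in each genotype. Jasmonate breakdown (CYP94B1, CYP94B3 and CYP94C1) had all 3 genes retained. Of the genes that inactivate brassinosteroids, CYP734A1 was lost and CYP72C1 (SOB7) retained, with folds at CYP72C1 of 2.19 and 2.22 in brd1/2/13 and 5.27 and 5.05 in BRM-GFP. The strigolactone gene CYP711A1 had H4K5ac folds of 3.37 and 2.96 in brd1/2/13 and 2.54 and 2.91 in WT, and no H4K8ac region in either genotype. The 2 cytokinin genes, CYP735A1 and CYP735A2, which make trans-zeatin, had no BRM-GFP or BRD region. Gibberellin genes had BRM-GFP at 3 of 5, though at CYP701A3 and CYP88A4, both retained, no peak in brd1/2/13 lay in the window of the gene.

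Defence and structural pathways had BRM-GFP at anything between all and none of their genes. With 3 to 11 genes each, these lists are also too short to set against the shares of all genes. Those shares were 55.8% with BRM-GFP, 20.8% with BRM-GFP in brd1/2/13 and 70.7% with H4K5ac in WT, and 43.9% of all bound genes were retained. The phenylpropanoid list had BRM-GFP and H4K5ac at 4 of 4 genes, 3 of them retained, with folds at CYP75B1 of 2.29 and 2.19 in brd1/2/13 and 4.36 and 4.95 in BRM-GFP. The carotenoid list had BRM-GFP and both marks at 3 of 3 genes but no region of BRM-GFP in brd1/2/13. Glucosinolate genes had BRM-GFP at 7 of 11 (3 retained, 3 partly retained, 1 lost), and the 4 without it included CYP79F1, CYP79F2 and CYP83A1 of the aliphatic branch. At CYP83B1, the indole aldoxime oxidase, folds were 2.29 and 2.38 in brd1/2/13 and 8.00 and 6.94 in BRM-GFP. Camalexin and indole defence genes had BRM-GFP at 2 of 5, retained at CYP71B6, which acts on indole-3-acetonitrile, and lost at CYP82C2. CYP71B15 (PAD3), the last enzyme of camalexin synthesis, had no BRM-GFP peak, and its BRD1-GFP folds were 2.15 and 2.50. Sterol genes had BRM-GFP at 3 of 5, CYP51G1, CYP710A1 and CYP710A2, and none at the near-identical C-22 desaturase genes CYP710A3 and CYP710A4. Cutin, suberin and wax genes had BRM-GFP at 6 of 9, 5 of them retained, and no BRM-GFP region lay at CYP86A1 and CYP86B1 of root suberin. Root triterpene genes had BRM-GFP at 0 of 5 and H4K5ac at 3 in brd1/2/13 and 2 in WT. Pollen wall and anther genes had BRM-GFP at 1 of 4, CYP704B1 of sporopollenin synthesis. In its window it had a peak of 1.77 in 1 list in brd1/2/13 and folds of 5.0 and 3.98 in BRM-GFP. CYP704B1 was called retained, since its BRM-GFP region met a peak of the other brd1/2/13 list outside that window. Organ growth genes, the CYP78A subfamily, had BRM-GFP at 4 of 6, and none at CYP78A5 (KLU).

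**Figure D5:**
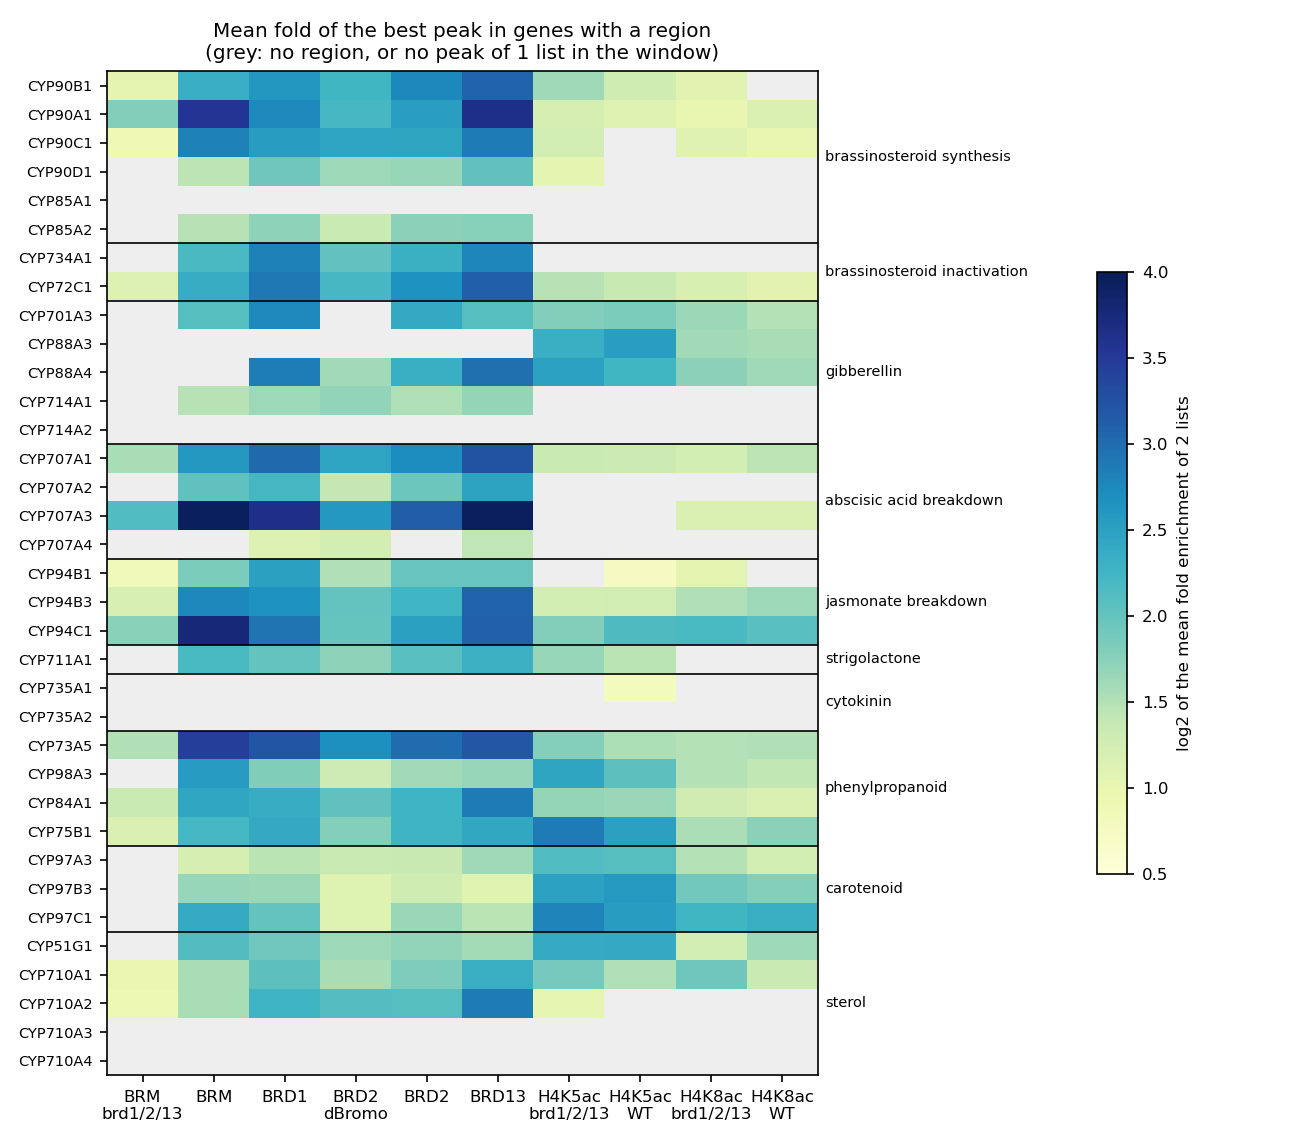
Colour gives the log2 of the mean fold of the best peak (2 lists) for members of 10 pathway lists (rows) in the 10 groups (columns), and grey marks no region or a window with no peak in 1 of the lists. CYP707A3, with folds of 15.4 and 15.6, is darkest for BRM-GFP. All gibberellin, strigolactone, cytokinin and carotenoid genes are grey for BRM-GFP in brd1/2/13.

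Many members lay next to one another. Neighbouring P450 genes formed 35 arrays with 109 members, and these had BRM-GFP regions at 20 (18.3%) in brd1/2/13 and at 48 (44.0%) in BRM-GFP, against 29 (23.2%) and 67 (53.6%) of the 125 members outside arrays. Of all genes, 20.8% and 55.8% had such regions. Of 74 neighbouring pairs, both genes were bound in 26, 1 in 17 and neither in 31, and 12 pairs shared a BRM-GFP region. Neighbouring pairs of all genes were not counted, and a single region can reach the windows of both neighbours. These pair counts are therefore not shown to be particular to P450 genes. The longest array, 9 genes from CYP71B16 to CYP71B24 on chromosome 3 (9565627 to 9599988), held 4 retained, 2 lost and 3 unbound members. Of the retained ones, CYP71B3 shared a BRM-GFP region with CYP71B23 and with CYP71B24. CYP71B19 and CYP71B20 in this array share 96.2% of their coding bases, and the first was unbound and the second retained. CYP706A1 and CYP706A2 share 97.3% and were retained and partly retained, and CYP710A3 and CYP710A4 share 95.8% and were both unbound. Reads of near-identical copies may map to either gene, so the values of such pairs are uncertain.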

How the data were processed

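Members, lists and alternatives were chosen with earlier results of these data known. Bowtie, MACS2 2.1.1, deepTools and the build TAIR10 are named in the submitters' processing notes. Bowtie's version, read filters and how inputs entered are not given in the sources used here. The authors deposited 1 peak list for each of 20 immunoprecipitated samples, and the 10 inputs were not used. The deposited score of a peak is its −log10 q times 10. The fold is the ratio to local background at a peak's summit as the authors' caller set it. Deposited −log10 p and −log10 q values served to describe and filter peaks. Antibody fields of the acetylation samples name GFP, so titles were followed.

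Lists hold no read totals, so depth was estimated by solving pileup and background from the deposited fold and p of peaks with −log10 p under 100. A low background lets weak peaks be missed. Chloroplast peaks were left out. An overlap of 1 bp counted as shared. Genes and sequences came from the TAIR10.1 annotation and assembly, whose chromosome lengths hold every peak. Acetylation or BRD2 regions of 1 group only had no peak of the other group in overlap, and a gene counted only if each of its regions of the group qualified. Groups of 2 lists were compared by a two-sided exact permutation test over 3 splits, whose smallest p of 0.333 cannot pass 0.05. Coding sequences of members were compared by blastn 2.17.0, over at least 80% of the longer sequence. Arrays were runs of neighbouring members.

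Named genes were the members of 16 pathway lists, the 10 highest of each BRM status by the worse of their ranks by score in the BRM-GFP lists, all members with acetylation or BRD2 regions of 1 group only, and families of 6 or more. Region calls, pileups and the exact test were tested on simulated data. Python 3.11.15, numpy 2.4.6, pandas 2.3.3 and scipy 1.17.1 were used.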

Additional observations from a re-analysis of the deposited data

How the results depend on the processing

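Of 204 values recomputed under alternatives, 33 counts moved by over 1.5 times, and the other 171 were counts within that range or differences between groups of lists that kept their sign, whatever their size. No sign reversed, and no difference could pass 0.05 in any setting. With equal numbers of peaks per list (6129 in each BRM list), 178 members were unbound, 5 lost and 6 partly retained. The difference between BRM-GFP in brd1/2/13 and BRM-GFP was then -9.5 members, that of H4K5ac 4 and that of H4K8ac 5. For the BRM lists this setting removes the difference in peak number by construction. H4K5ac of WT only was at 2 members with equal numbers. Asking for an overlap of at least 50% of the region gave 19 retained and 76 lost members, and H4K8ac of brd1/2/13 only at 7 and of WT only at 3. With 500 bp either side of the start, 8 members were partly retained, H4K5ac of brd1/2/13 only was at 3 and of WT only at 0, and H4K8ac of brd1/2/13 only at 2, as also with the gene body only. Peaks with −log10 q of at least 5 gave H4K5ac of WT only at 4 and H4K8ac of WT only at 2. Without any peak of the other genotype in the window, H4K5ac of WT only was at 0. Leaving out each list in turn gave 0 to 14 partly retained members (0 by construction without a list of BRM-GFP in brd1/2/13), H4K5ac of brd1/2/13 only at 9 to 10 and of WT only at 2 to 4, and H4K8ac of brd1/2/13 only at 8 to 12 and of WT only at 3 to 8. Leaving out a list also loosens the definitions, since a region of that group then needs a peak in 1 list only. Regions of the other genotype are then checked against 1 list only. The cause of the remaining changes was not tested.

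Same-numbered replicates did not deviate together from gene to gene (correlations of -0.01, -0.01, 0.02 and 0.04 for the 4 comparisons). Only genes with a peak in all 4 lists of a comparison entered. A shift common to all genes would not show in these correlations, so they cannot tell whether same-numbered samples were handled together. With the replicate number as a block the differences were -65 (BRM), 8.5 (H4K5ac), 7.5 (H4K8ac) and -7.5 (BRD2), each with an exact permutation p of 0.5, the smallest that the block allows.

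Depth limits these results: BRM-GFP lists had the lowest background coverage, and a gene without a peak is not shown to lack occupancy.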

Other observations

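P450 loci outside the naming rule were read the same way. Of 19 such loci, which include pseudogenes and genes listed under another symbol, AOS, the allene oxide synthase of jasmonate synthesis and a member of family 74, had regions of all 10 groups and was retained. The pseudogenes CYP705A14P and CYP71B18 were lost, and the remaining loci had no BRM-GFP region. CYP718 had a region of BRD1-GFP only.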
